A study of Rattus norvegicus with 8 samples.

Results

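Complement components C1, C3 and C4 and the inhibitor of C1 were examined in cultured rat hippocampal neurons whose axons had met soluble amyloid oligomers. Members were the rows of the axonal and somatic comparison tables whose rat gene symbol was on a list of 9 names (C3, C1r, C1s, C1qa, C1qb, C1qc, C4a, C4b and Serping1), and 7 of the 9 were found among 26405 genes. C1r was found in a row without a symbol through its Entrez identifier in RefSeq, so it is described beside the 7 and not counted with them, and expression of C4b was not analysed here. The cells were embryonic hippocampal neurons kept 10 to 14 days in microfluidic chambers, in which axons extend through fine channels into a compartment of their own. The 4 groups, of 2 samples each, were axons Abeta, axons control, soma Abeta and soma control. In the Abeta groups the axons alone had received oligomers of Abeta(1-42) for 24 h, and in the control groups vehicle. The somatic samples held cell bodies and the neurites around them. Nothing in the labels names a genotype or says that the duplicates were separate cultures, and the p-values cover no more than the spread among such samples, possibly technical.

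Complement is a cascade of secreted proteins of innate immunity. The recognition molecule C1q, built of chains encoded by C1qa, C1qb and C1qc, carries the proteases C1r and C1s, which cleave C4 and C2 and so form an enzyme that cleaves C3, while Serping1, the C1 inhibitor, blocks C1r and C1s. In brain, C1q is made largely by microglia and C3 is known as a product of reactive astrocytes and of meningeal and other stromal cells. C1q and C3 tag synapses for removal by microglia during development and in mouse models of amyloid disease.

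The deposited fold changes do not name the treatment on top. Genes with a deposited log2 fold change above 0 are therefore called positive-side genes, and the libraries on that side of the contrast positive-side libraries, without saying which treatment that side was. Normalized counts (reads divided by the library's size factor) were recovered for each library from the deposited means, and the recovered libraries carry no sample title. Each was given a side and a number, library 1 being the one of larger size factor on its side. The numbers are thus not replicate numbers. Size factors ran from 0.740 to 1.32 in axons, with both positive-side libraries above both negative-side ones, and from 0.297 to 3.74 in soma, where each side held a deep and a shallow library. Recovered reads numbered 231854 to 425420 per axonal and 262971 to 3656302 per somatic library. Of the 10 neuron markers, 9 were found and none was at 0 in either table, and the same held for 15 of 16 astrocyte markers, 15 of 16 microglia and macrophage markers and 12 of 12 fibroblast and meningeal markers. Of all 26405 genes, 23879 had reads in axons and 18995 in soma, so a marker above 0 says little alone. Marker means ran from 0.525 (Foxc1) to 823 (Gfap) in axons and from 0.235 (Foxc1) to 7967 (Apoe) in soma. The cultures were labelled as neurons, and how much of other cell types they held was not tested.

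The start regions of the genes the results turn on are shown first, for genes of the promoter table on either side of 0 in axons, C3 and C1r above it and the C1q chain genes below it. Each run is RefSeq sequence of build GRCr8, 250 bases before to 50 bases after the annotated start, 5′ to 3′ on the gene's strand. In C3 and C1r the capitals mark matches to TTGCNNAA, a form of the binding motif of C/EBP factors, which are known regulators of C3 in human liver cells. In C1qa and C1qb they mark matches to GAGGAA or GGAAGTG, forms of the motif of PU.1, a transcription factor of microglia and macrophages.
C3, chr9:2201290-2201589, minus strand: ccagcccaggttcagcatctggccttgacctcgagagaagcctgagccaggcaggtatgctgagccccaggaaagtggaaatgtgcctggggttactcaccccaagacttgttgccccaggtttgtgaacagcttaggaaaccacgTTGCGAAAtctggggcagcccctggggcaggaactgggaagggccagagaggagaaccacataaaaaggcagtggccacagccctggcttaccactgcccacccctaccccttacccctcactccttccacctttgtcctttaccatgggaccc
C1r, chr4:159098763-159099062, plus strand: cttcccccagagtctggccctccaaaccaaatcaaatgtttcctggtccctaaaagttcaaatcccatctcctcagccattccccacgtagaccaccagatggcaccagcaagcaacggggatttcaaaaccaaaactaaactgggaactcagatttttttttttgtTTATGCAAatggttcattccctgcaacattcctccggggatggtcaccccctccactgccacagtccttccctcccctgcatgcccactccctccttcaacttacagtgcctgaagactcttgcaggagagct
C1qa, chr5:154419884-154420183, minus strand: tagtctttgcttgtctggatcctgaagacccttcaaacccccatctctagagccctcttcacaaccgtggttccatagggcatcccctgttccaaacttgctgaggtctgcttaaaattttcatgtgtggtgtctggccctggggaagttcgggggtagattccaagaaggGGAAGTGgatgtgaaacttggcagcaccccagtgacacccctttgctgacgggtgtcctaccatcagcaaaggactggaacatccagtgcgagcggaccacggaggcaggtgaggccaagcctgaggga
C1qb, chr5:154407778-154408077, minus strand: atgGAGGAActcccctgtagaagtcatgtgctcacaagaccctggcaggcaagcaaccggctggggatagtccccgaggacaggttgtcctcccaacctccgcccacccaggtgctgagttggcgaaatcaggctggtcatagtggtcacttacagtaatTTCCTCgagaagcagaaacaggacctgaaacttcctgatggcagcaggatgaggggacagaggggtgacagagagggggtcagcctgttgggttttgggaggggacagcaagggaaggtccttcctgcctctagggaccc

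The promoter table held 6 of the 9 listed genes, and C1s, C1qc and Serping1 were the others. TTGCNNAA, searched on both strands, lay in the C3 window at -104 to -97 from the start and in the C1r window at -83 to -76, and in none of the windows of C1qa, C1qb, C4a and C4b. It occurred in 10.6% of all 33469 windows of that length. GGAAGTG lay in the C1qa window at -79 to -73 (9.86% of all windows), and GAGGAA occurred at 2 places in C1qb and at 1 in each of C1r and C4b (27.6% of all windows). The other motifs searched on both strands were TTCNNNGAA (STAT; in C1qa, and in 8.87% of all windows), GGG followed by any 3 bases and TTCC, and GGAANNCCC (NF-kB; both in C1qb, overlapping each other and a GAGGAA match, and in 5.37% and 5.92%), and ATAAAA (a variant of the core promoter box; in C3 at -44 to -39, and in 20.5%). CACGTG (E-box) was in C4a and C4b and in 6.42% of all windows, and CATGTG (E-box) was in C1qa and C1qb and in 14.0%. TATAAA (14.2%) and a repeat of GAAA with any 2 bases between (interferon response, 3.92%) were in none of the 6. A match describes the letters of these windows and shows no binding. In the RefSeq gene order, C1r and C1s are direct neighbours on chromosome 4, and C1qb, C1qc and C1qa follow one another on chromosome 5 with no gene between them.

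The first comparison asks which complement transcripts of the axonal compartment differed between the treatments. The substrate C3, the proteases C1r and C1s and their inhibitor Serping1 all had higher counts in both positive-side libraries than in either negative-side library, with ratios of mean normalized counts from 5.80 (C1s) to 8.67 (C1r). The 3 chains of C1q had axonal means of 5.28 to 8.50 normalized counts and lay on the negative side, and C4a differed little. By the authors' adjusted p under 0.05 (DESeq2), C3 and C1s were called on the positive side, and they were the 2 members of 7 that had an adjusted p in axons, which was given to 1321 genes with a mean of at least 44.8. Of those 1321 genes, 8.78% were called positive and 14.2% negative. The sides did not overlap for 3 of the 7 members with the positive side higher and for C1qb with the negative side higher. Among all 7851 recovered genes averaging 10 or more, that was so for 30.6% and 18.9%, and of the 7 members C3, C1s, Serping1 and C4a reached that mean, while C1qb did not. Among all 23879 genes with reads, 1.86% had an unadjusted p under 0.05 on the positive side, and C3, C1s and Serping1 were among them, as was C1r. The median axonal log2 fold change was 0.30 over the 7 members and -0.13 over all genes with reads. Less RNA per cell and fewer cells of a type cannot be told apart in these bulk samples.

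**Figure D1:**
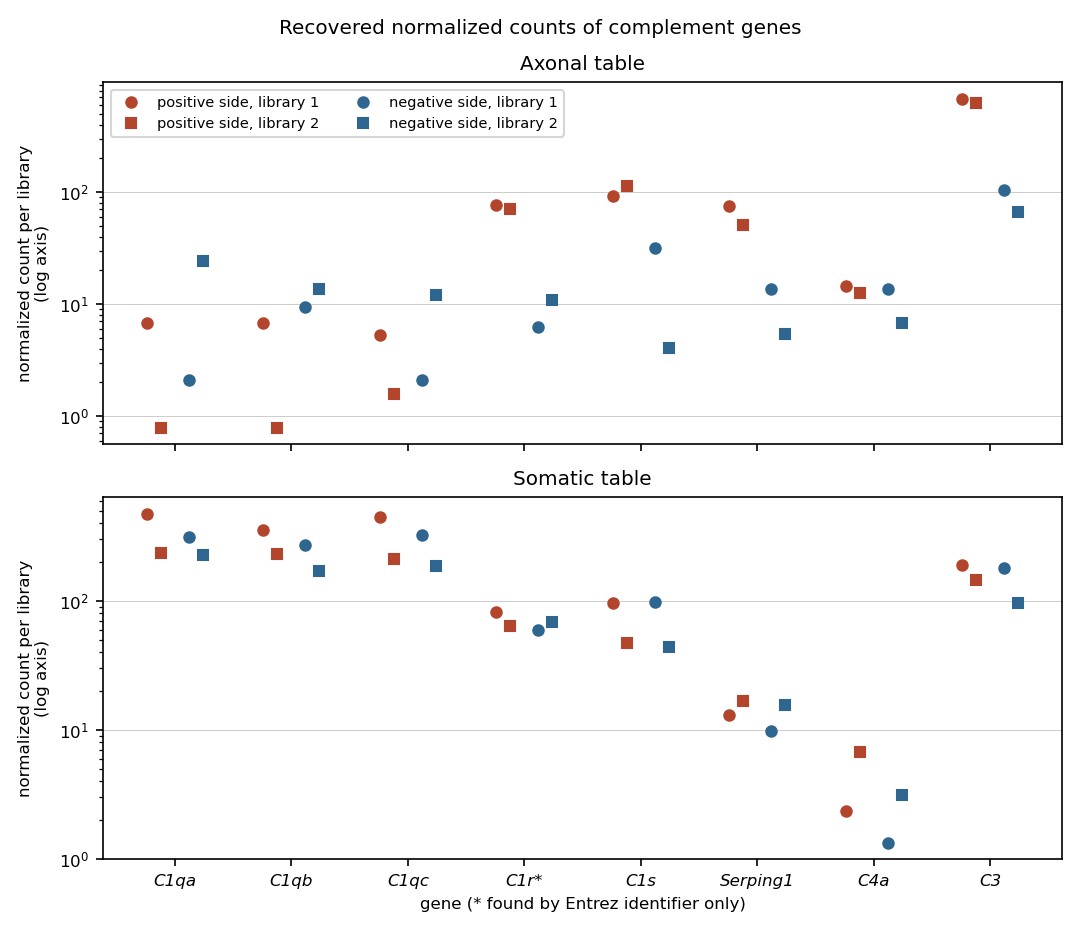
Recovered normalized counts (log axis) of each gene in the 4 axonal libraries (top) and the 4 somatic libraries (bottom), with positive-side libraries left of negative-side ones; circles are library 1 and squares library 2 of a side. In axons C3, C1r, C1s and Serping1 are separated with the positive side higher, and C1qb with the negative side higher. Among all recovered axonal genes averaging 10 or more, which C1qb does not reach, 30.6% and 18.9% were so separated. In soma the sides of every gene shown overlap.

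C3, the central component whose cleavage products opsonize targets and recruit phagocytes (ENSRNOG00000046834), had 679 and 622 normalized counts in positive-side axonal libraries, against 105 and 66.2 in negative-side libraries, from 898 and 795 reads against 100 and 49. The negative-side libraries differed 1.59-fold from each other, and the lower positive-side value stood far above the higher negative-side one. In the authors' deposited table the log2 fold change was 2.80 (SE 0.42, adjusted p = 3.95e-09), or 6.98-fold. The call held when p-values were adjusted over all genes averaging 10 or more (adjusted p = 2.40e-08, where 0.884% of 8032 genes were called positive) and over every gene with reads (7.15e-08, where 0.209% of 23879 were). Without any 1 of the libraries, the recovered log2 ratio of C3 lay between 2.62 and 3.28.

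C1s, the protease of the C1 complex that cleaves C4 and C2 (ENSRNOG00000011971), had 93.0 and 113 normalized counts in positive-side libraries, against 31.5 and 4.05 in negative-side libraries. The negative-side libraries differed 7.78-fold from each other, with 30 reads in one and 3 in the other. The log2 fold change of C1s in the authors' deposited table was 2.22 (SE 0.67, adjusted p = 0.0120). Adjusted over all genes averaging 10 or more, its p was 0.0640, and over every gene with reads 0.184, so the call rested on the set of genes the adjustment covered. The recovered log2 ratio was 4.37 without negative-side library 1 and 1.68 without negative-side library 2.

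C1r (ENSRNOG00000011796), the protease that activates C1s, had 77.1 and 71.2 normalized counts on the positive side, against 6.30 and 10.8 on the negative side. Its 102 and 91 reads against 6 and 8 kept the sides far apart. The authors' deposited table gives it a log2 fold change of 2.78 (SE 0.67, p = 3.02e-05) and no adjusted p, and its mean of 41.4 lay under 44.8. Adjusted over genes averaging 10 or more, its p was 0.00582, and over every gene with reads 0.0173, so C1r passed under both of these.

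Serping1 (ENSRNOG00000007457), the serpin that inactivates C1r and C1s, had 75.6 and 50.9 normalized counts in positive-side libraries, against 13.7 and 5.40 in negative-side libraries. The sides did not overlap, and 100 and 65 reads stood against 13 and 4. In the authors' deposited table its log2 fold change was 2.37 (SE 0.70, p = 0.000669), with a mean of 36.4 and no adjusted p. Its p was 0.0593 adjusted over genes averaging 10 or more and 0.175 over every gene with reads, so Serping1 passed neither.

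The C1q chains gave few axonal reads. C1qa (ENSRNOG00000012807) had 9 and 1 reads in positive-side libraries, against 2 and 18 in negative-side libraries, or 6.80 and 0.783 against 2.10 and 24.3 normalized counts. C1qb (ENSRNOG00000012749) had 6.80 and 0.783 normalized counts on the positive side, against 9.45 and 13.5 on the negative side. C1qc (ENSRNOG00000012804) had 5.29 and 1.57, against 2.10 and 12.2. Within each side the 2 libraries differed from each other, with positive-side library 2 the lowest for every chain and negative-side library 2 the highest. The log2 fold changes in the authors' deposited table were -1.16 (SE 1.01) for C1qa, -1.07 (SE 0.99) for C1qb and -0.63 (SE 1.04) for C1qc, with p of 0.254, 0.282 and 0.547 and no adjusted p. Without negative-side library 2 the recovered log2 ratio was 0.63 for C1qa and 0.51 for C1qc, on the other side of 0. Among 5473 genes with axonal and no somatic reads, the median axonal mean was 1.35, and the means of C1qa, C1qb and C1qc stood at the 98.1st, 97.4th and 92.9th percentile of those genes. Those genes held 2.80% and 1.25% of all reads recovered in positive-side axonal libraries, against 5.59% and 4.62% in negative-side libraries. The part of such reads in the C1q values was not tested.

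C4a (ENSRNOG00000030729), a gene of C4, the substrate of C1s that binds covalently to targets as C3 does, had 14.4 and 12.5 normalized counts on the positive side, against 13.7 and 6.75 on the negative side. The sides overlapped, and the log2 fold change in the authors' deposited table was 0.30 (SE 0.88, p = 0.733). At an offset of 5 bases the promoter windows of C4a and C4b agreed at 276 of 295 positions (93.6%), and over the last 100 aligned bases at 100%. Their transcript sequences were not compared. Whether reads of C4a were shared with C4b was not tested, and the values of C4a are uncertain.

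Genes well expressed in soma (mean 100 or more, 2683 genes) stood at a median of 0.44 in the axonal comparison on the log2 scale. After subtracting it from every gene, 5.07% of the 1321 genes were called positive and 16.7% negative (67 and 221 genes, against 116 and 188 before). C3 then stood at 2.36 (adjusted p = 3.57e-06) and C1s at 1.78 (adjusted p = 0.0381), both still called. C1r stood at 2.34, Serping1 at 1.93, C4a at -0.14 and the C1q chains at -1.59 to -1.06 on that scale.

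**Figure D2:**
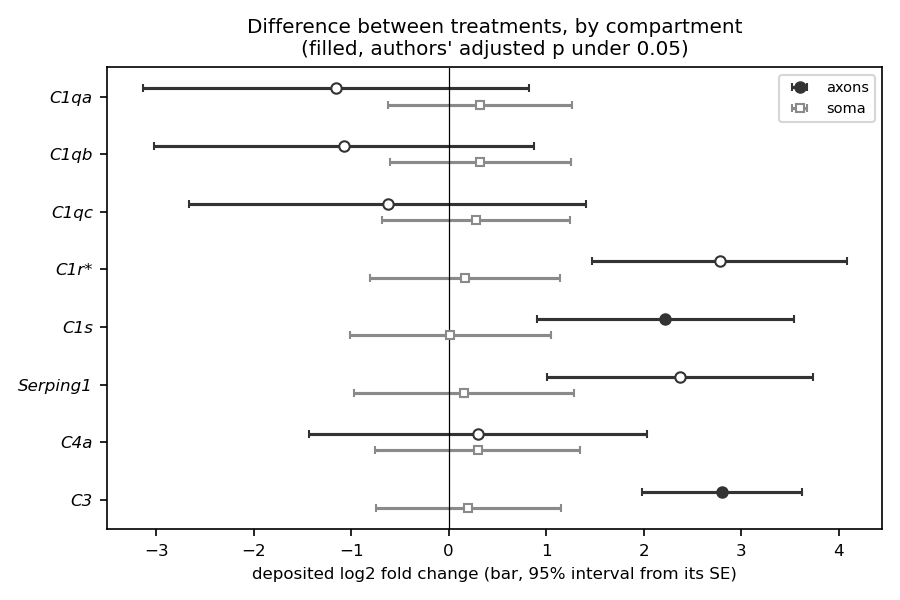
Deposited log2 fold change between treatments with its 95% interval (from the SE) for each gene, in axons (circles, upper) and soma (squares, lower); a filled symbol had an adjusted p under 0.05. The axonal intervals of C3, C1r, C1s and Serping1 lie above 0, and those of the C1q chains, C4a and every somatic value include 0.

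The second comparison asks whether the same transcripts differed in the cell bodies when the axons alone were treated. None of the 7 members was called in soma, and neither was any other gene (0.0% of 18995 at adjusted p under 0.05 by DESeq2, and 0.0105%, or 2 genes, at unadjusted p under 0.05). The unadjusted share lay far below the threshold itself, which is the share expected if no gene differed. The deposited somatic p-values were thus conservative, and the lack of calls does not show that somatic transcripts were unchanged. All 7 members lay slightly on the positive side, with log2 fold changes between 0.02 for C1s and 0.33 for C1qb by the authors' deposited table, with a median of 0.28 against -0.02 over all genes with reads. C3 stood at 0.20 (SE 0.49, p = 0.678) in the authors' deposited table, with a 95% interval of -0.75 to 1.15. The sides overlapped for each of the 7 members and for C1r. Of 11048 recovered somatic genes averaging 10 or more, 7.42% had the positive side higher without overlap and 8.26% the negative side.

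In soma several members differed more between deep and shallow libraries than between sides. The deep and shallow libraries also differed in marker levels, and whether depth or another difference between them lay behind this was not tested. C1qa had 475 and 236 normalized counts in the deep and the shallow positive-side library, against 313 and 225 in the deep and the shallow negative-side one. C1qb had 356 and 232 against 270 and 172, and C1qc 448 and 212 against 325 and 188 normalized counts. Each C1q chain was highest in the deep positive-side library and lowest in the shallow negative-side one, and the shallow libraries gave 55 to 72 reads per chain. C1s had 96.7 and 47.1 normalized counts on the positive side, against 97.3 and 43.8 on the negative side, so the deep libraries were about 2.05- and 2.22-fold above the shallow ones. C1r had 82.2 and 64.0 against 59.3 and 68.8, and Serping1, with 39 and 5 reads against 37 and 5, had 13.1 and 16.8 against 9.89 and 15.6 normalized counts. C3 had 188 and 145 on the positive side, against 179 and 97.0 on the negative side. C4a had 7 and 2 somatic reads on the positive side, against 5 and 1 on the negative side. Within the deep pair the log2 ratio of C3 was 0.07 and within the shallow pair 0.57, and for C1qa these were 0.60 and 0.07. Both ratios were above 0 for 6 of the 7 members, all but C1s, against 23.5% of the 11048 recovered genes averaging 10 or more, which C4a did not reach. These pairs were formed by depth and carry no test.

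The third comparison asks whether the axonal difference was itself unlike the somatic one. C3 had an axonal minus somatic difference of 2.60 on the log2 scale (SE 0.64, unadjusted p = 4.79e-05), which did not pass when adjusted over the 18406 genes with values in both tables (adjusted p = 0.110), where 0.0326% of genes passed. It passed when adjusted over the 7257 genes averaging 10 or more in both tables (adjusted p = 0.0435, with 0.11% of genes passing) and missed after centring each compartment (adjusted p = 0.674, with 0.0% of genes passing). C1s differed by 2.20 (SE 0.86) and Serping1 by 2.21 (SE 0.90), each with adjusted p = 1.00, and C1r by 2.61 (SE 0.83, adjusted p = 0.720). The 95% intervals of these differences were 1.35 to 3.85 for C3, 0.53 to 3.88 for C1s, 0.44 to 3.98 for Serping1 and 0.98 to 4.24 for C1r. The C1q chains had differences of -1.47 to -0.91, with intervals that all included 0. In both tables the deposited log2 fold change lay nearer 0 than the recovered log2 ratio for each of the 7 members and for C1r, and the test took the fold changes as deposited. The test also used the SEs of the conservative somatic comparison.

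The members were also split by where their transcripts were found. The 2 tables were scaled separately and carry no test between them, so the ratio of a gene's axonal to its somatic mean is set against the same ratio in the 11157 genes that had axonal reads and averaged 10 or more in soma, whose median was 0.277. C3 had a mean of 368 in axons and 152 in soma, a ratio of 2.42 (98.0th percentile), and Serping1 had 36.4 in axons and 13.9 in soma, a ratio of 2.62 (98.1st percentile). C1s had 60.5 in axons and 71.2 in soma (0.850, 93.6th percentile), and C1r 41.4 in axons and 68.6 in soma (0.603, 86.9th percentile). At the other end, C1qa had 8.50 in axons and 312 in soma (0.0272), C1qb 7.64 and 258 (0.0296) and C1qc 5.28 and 293 (0.0180), at the 0.233rd, 0.287th and 0.0986th percentile. C4a, with 11.8 in axons and 3.39 in soma, was under the minimum for this ranking. These axonal means pool both sides, which differed for C3, C1r, C1s and Serping1, so the order was also taken for each side of the axonal libraries over the same somatic means, in 10976 recovered genes, an alternative chosen after seeing the data. From the positive-side axonal libraries the ratio was 4.27 for C3, 4.56 for Serping1, 1.45 for C1s and 1.08 for C1r, with C1r at the 97.1st percentile and the others above it. From the negative-side axonal libraries it was 0.563 for C3 (84.5th percentile), 0.687 for Serping1 (89.4th), 0.250 for C1s (51.7th) and 0.125 for C1r (20.2nd), where the median gene had 0.241. The high places of C1s and C1r thus came from the positive-side libraries. The C1q chains lay at or under the 3.23rd percentile on either side.

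**Figure D3:**
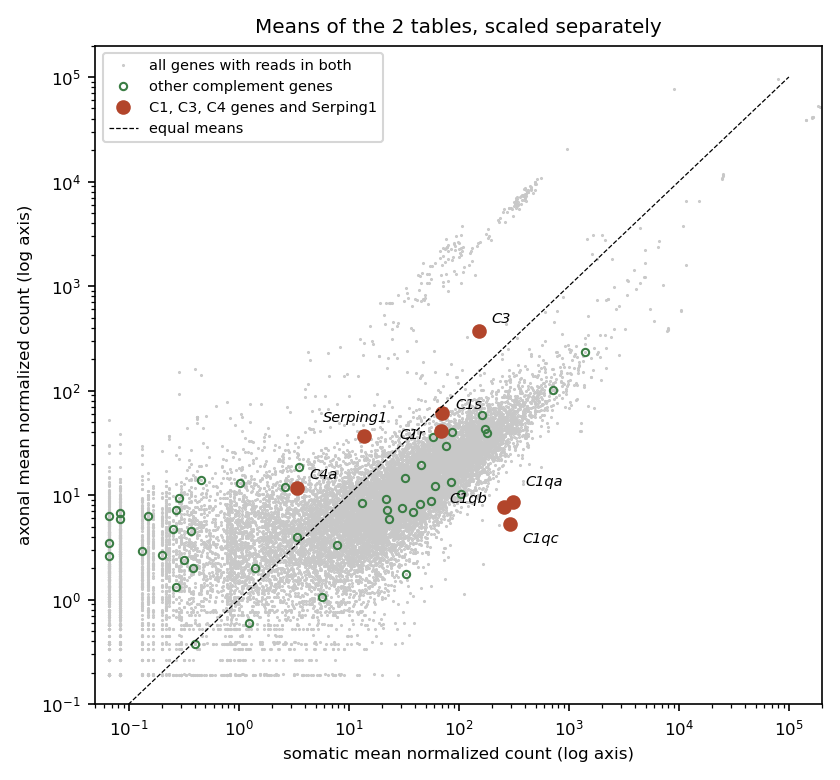
Axonal mean normalized count against somatic mean normalized count (both log axes) for all genes with reads in both tables (grey), other complement genes (open circles) and the C1, C3 and C4 genes with Serping1 (filled). C3, Serping1 and C4a lie above the line of equal means, and the 3 C1q chains lie at the lower right edge, with somatic means of 258 to 312 and axonal means of 5.28 to 8.50.

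Other genes of the complement system were taken from a list of 54 symbols, of which 49 were found, all with axonal reads. By the authors' adjusted p, only Clu was called on the positive side and none on the negative side, among the 3 that had an adjusted p (Clu, Calr and Sez6l2). Of all 1321 genes with an adjusted p, 8.78% were called positive and 14.2% negative. Their median axonal log2 fold change was -0.53, against -0.13 over all genes with reads, and 17 of the 49 had an axonal mean of at least 10 (median -0.36, against 0.15 over all such genes). In soma none of 47 was called, and 0.0% of all 18995 genes were. The somatic mean was under 1 for 19 of the 49, a share like that over all genes with axonal reads (8778 of 23879). Axonal reads with little somatic counterpart were thus not particular to this list.

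Among convertase and alternative pathway components, Cfb (factor B, which forms the alternative C3 convertase) had 59.0 and 47.0 normalized counts on the positive side, against 21.0 and 17.6 on the negative side. The sides did not overlap, and its log2 fold change in the authors' deposited table was 1.30 (SE 0.65, p = 0.0448), without an adjusted p. In soma Cfb had 68.4 and 70.7 normalized counts on the positive side, against 40.6 and 56.3 on the negative side, also without overlap (0.41, SE 0.50, in the authors' deposited table). C5, the source of the anaphylatoxin C5a, stood at -0.89, Cfp (properdin, which stabilizes the convertase) at -0.41 and Cfd (factor D, which cleaves factor B) at 0.36 in the axonal comparison of the authors' deposited table, with p of 0.342, 0.680 and 0.728. Of the lectin pathway, Masp1, a protease related to C1r and C1s, had 33.3 and 54.0 normalized counts on the positive side, against 22.1 and 8.10 on the negative side (1.31, SE 0.72, p = 0.0703 in the authors' deposited table). Mbl2, a mannose-binding lectin, had 8.31 and 7.04, against 21.0 and 37.8 on the negative side (-1.61, SE 0.79, p = 0.0431 in the authors' deposited table). Colec12 (-0.71) and Colec10 (-1.50) had p of 0.460 and 0.151 by the authors' deposited table. The terminal components C8a, C8b, C7, C8g and C9, which form the membrane attack complex, had axonal means of 1.31 to 7.22 and somatic means of 0.0668 to 1.42, and 0 of the 5 had an adjusted p.

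Of the regulators in fluid phase, Clu (clusterin, an inhibitor of the membrane attack complex and a lipid-binding chaperone) had 368 and 348 normalized counts on the positive side, against 52.5 and 172 on the negative side (1.58, SE 0.51, adjusted p = 0.0138, by the authors' deposited table). Adjusted over genes averaging 10 or more, its p was 0.0742, so the call of Clu rested on the set of genes the adjustment covered. Cpn1 (carboxypeptidase N) stood at -1.19 (p = 0.202) in the axonal comparison of the authors' deposited table. C4bpa (C4 binding protein) had no reads in positive-side libraries and 6.30 and 17.6 normalized counts in negative-side libraries, on a somatic mean of 0.0842, with p = 0.00323 and no adjusted p in the axonal comparison of the authors' deposited table. Among membrane regulators and proteins with sushi domains, Sez6l2 (-0.16, SE 0.56, adjusted p = 0.866), Sez6 (-0.72, SE 0.60), Sez6l (-0.24, SE 0.69) and Csmd1 (-0.36, SE 0.64), all of them neuronal, had p of 0.230 to 0.769 in the authors' deposited table. Of the receptors and C1q binding proteins, Calr (calreticulin) had 144 and 135 normalized counts on the positive side, against 65.1 and 63.5 on the negative side (1.06, SE 0.48, adjusted p = 0.103, by the authors' deposited table). Itgax (-1.17), Cd93 (-0.38) and Itgb2 (-0.91), receptors of phagocytes and vascular cells, had p of 0.176 to 0.673 in the authors' deposited table. The 14 matched genes of other proteins with a C1q domain, which are mainly synaptic organizers and secreted factors, had axonal means under 10 and a median log2 fold change of -0.25. The 4 of highest axonal mean were C1qtnf5 (-0.17), C1ql1 (-0.92), C1qtnf6 (-0.58) and Cbln4 (-0.80), with p of 0.364 to 0.855 in the authors' deposited table, and 0 of the 14 had an adjusted p.

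**Figure D4:**
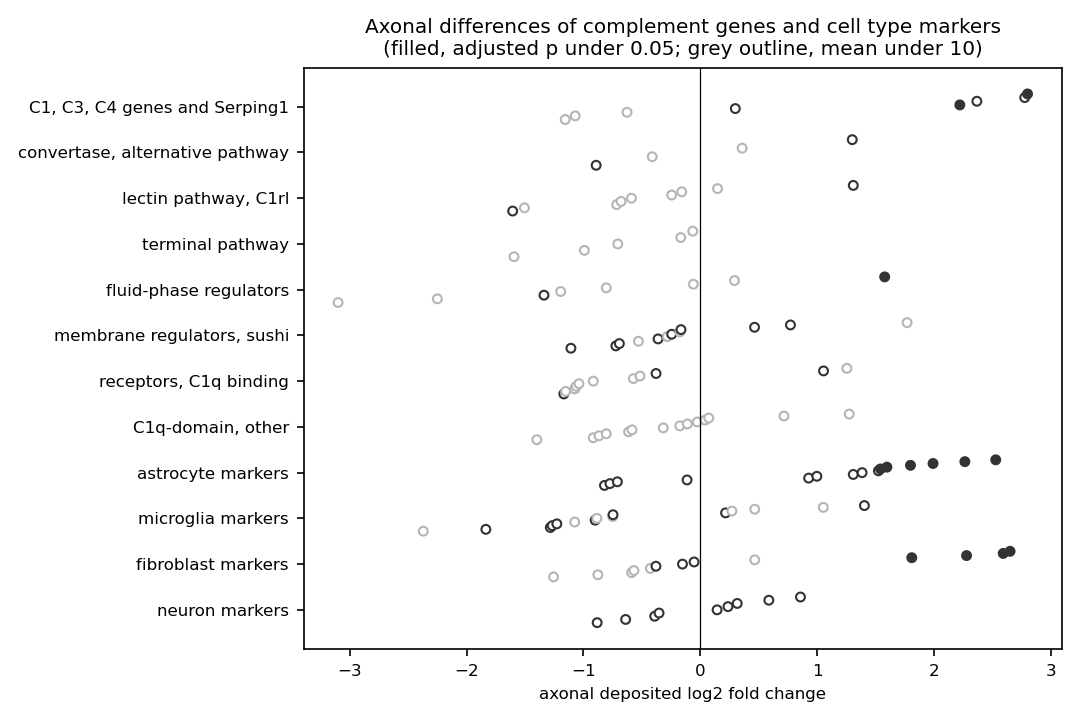
Axonal deposited log2 fold change (1 circle per gene) for the C1, C3 and C4 genes with Serping1, other complement genes by role, other C1q-domain genes and markers of 4 cell types; filled circles had an adjusted p under 0.05 and grey outlines a mean under 10. C3, C1r, C1s and Serping1 (2.22 to 2.80) lie to the right of the other complement genes, the highest of which is Cd47 at 1.77.

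Markers of 4 cell types were set beside these members, and their lists did not all go the same way. In axons, 11 of 15 astrocyte markers had an adjusted p, and 6 were called on the positive side and 0 on the negative side. Over all 1321 genes with an adjusted p, 8.78% were called positive and 14.2% negative. The summed level of the 15 astrocyte markers was 4297 and 4463 normalized counts in positive-side libraries, against 864 and 1983 in negative-side libraries. Of 12 fibroblast and meningeal markers, in 13 rows, 5 rows had an adjusted p, and 4 were called positive and 0 negative. The sums over all 13 rows were 755 and 1104 against 257 and 254. Both sums were thus high in the libraries where C3, C1r, C1s and Serping1 were high, but not all of their genes were. Of the 13 fibroblast and meningeal rows, 8 lay below 0 (median -0.15), and the 4 called were the matrix genes Col1a1, Col1a2, Col6a1 and Fbln1. Of the 15 astrocyte markers, 4 lay below 0 (median 1.39). Adjusted over genes averaging 10 or more, Col6a1 (adjusted p = 0.0793) and the astrocyte marker Gja1 (0.100) lost their calls, and the other called markers kept theirs. Microglia and macrophage markers, with 0 of 15 called and 0 with an adjusted p, summed to 132 and 80.6 normalized counts on the positive side, against 178 and 236 on the negative side. C1qa, C1qb and C1qc together had 25 and 4 reads on the positive side, against 13 and 37 on the negative side. Neuron markers, 6 of 9 with an adjusted p and 0 called, summed to 693 and 790 against 435 and 874 normalized counts. The sides of the neuron sums overlapped. The part of these cell types in the differences of the members was not tested.

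In soma the sums over the markers that could be recovered differed little between sides. For 10 astrocyte markers, without Gfap, Vim, Apoe, Slc1a3 and Sparcl1, they were 3882 and 4307 normalized counts on the positive side. On the negative side they were 3709 and 4254. For 15 microglia and macrophage markers they were 916 and 734 against 819 and 694, and the C1q chains together had 1279 and 680 against 908 and 585, each highest in the deep positive-side library and lowest in the shallow negative-side one. Fibroblast and meningeal markers were higher in the shallow libraries, at 218 and 525 against 211 and 554. The ratio of axonal to somatic mean had a median of 0.182 over 13 microglia and macrophage markers that averaged 10 or more in soma, with a range of 0.0238 to 1.28. It was 0.133 over 15 astrocyte markers (0.0399 to 1.40), 0.142 over 9 neuron markers (0.0820 to 0.608) and 1.08 over 7 fibroblast and meningeal rows (0.314 to 11.3).

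**Figure D5:**
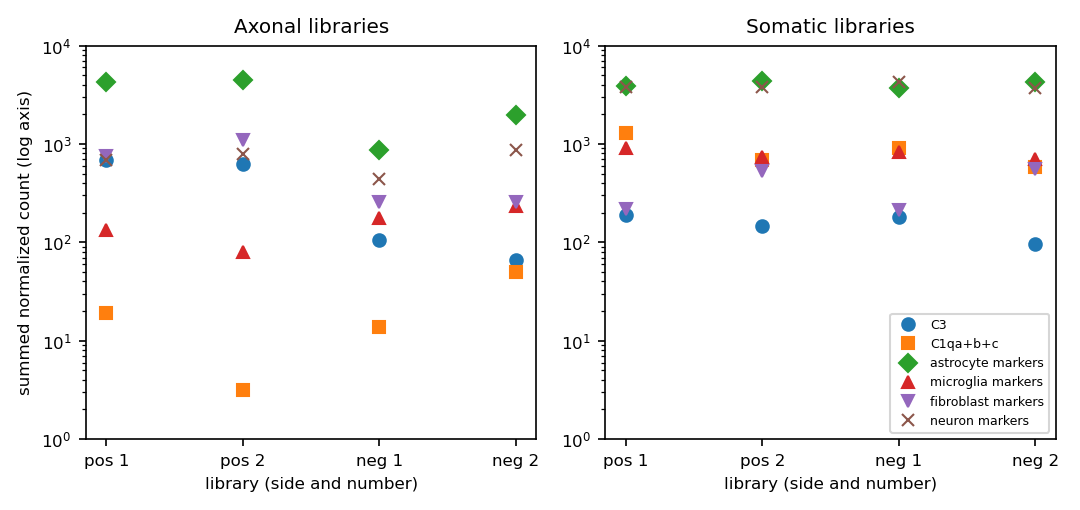
Normalized counts (log axis) of C3, of the 3 C1q chains summed and of 4 marker lists summed, in each axonal library (left) and somatic library (right), ordered by side and number. In axons C3, astrocyte and fibroblast sums are higher in both positive-side libraries, and microglia sums lower (132 and 80.6 against 178 and 236). The astrocyte sum covers 15 genes in axons and 10 in soma, and the neuron sum 9 and 8, so the panels are not alike in genes.

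The genes whose profile was most like that of a member were sought over the 8 recovered libraries among 6649 other named genes averaging 10 or more in both tables, by the root mean square distance of log2 values centred within each compartment, with the log2 ratio of the 2 means as a further coordinate. For C3 they were Mgp (matrix Gla protein, distance 0.428), Serping1 (0.432), Icam1 (an adhesion molecule, 0.540), Ccdc80 (a matrix protein, 0.554) and Scn7a (a sodium channel of glia, 0.559), where the median distance of all genes from C3 was 1.49. For Serping1 they were C3 (0.432), Fbln2 (a matrix protein, 0.460), Chi3l1 (0.479), Mgp (0.507) and Megf10 (a phagocytic receptor of astrocytes, 0.526), against a median of 1.47. C3 and Serping1 were each within the nearest 2 of the other. Mgp had 213 and 133 axonal normalized counts on the positive side, against 35.7 and 18.9 on the negative side, and Icam1 had 34.8 and 37.6 against 4.20 and 5.40. All of these genes were measured in the same libraries, so the distances describe these 8 libraries.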

How the data were processed

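RNA of axonal and somatic compartments was sequenced from cDNA libraries made with a TruSeq kit, per the labels' protocols. The submitters' processing notes list the tools TopHat2, Trim Galore, DESeq2 and SAMtools, without versions or order. Build, annotation and read counter: not given in the sources used here.

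Each deposited table holds the authors' comparison in 1 compartment. Per the file headers these are a mean normalized count (a signal: counts over size factors, averaged by the authors over 4 libraries), a log2 fold change and SE, a Wald score, a p-value and an adjusted p-value. Here the score equalled the log2 fold change over its SE, and the p-value its two-sided normal p. The deposited axonal adjusted p-values equalled Benjamini-Hochberg values over 1321 genes, and 18995 genes had one in soma.

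Reads per library were recovered as whole numbers of a fixed unit per library from the many printed digits of the deposited means, in Python 3.11.15 with numpy 2.4.6. Exactly 1 solution was found for 100% of means under 500 in both tables, and shifted decoy means of that size had none in 200 of 200 cases per size class. For means of 500 to 1000, which include some marker values, 1 solution was found for 100% in axons and 99.3% in soma. In that class 2.56% of axonal and 4.11% of somatic decoys had a solution. On simulated means, 3033 of 3033 axonal-like and 3066 of 3066 somatic-like values were recovered. Means over 1000 were not solved. Sides came from the sign of the fold change of genes with a single read, and recovered libraries entered no test.

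The axonal minus somatic test divided the difference of the log2 fold changes by the root of the summed squared SEs (two-sided, Benjamini-Hochberg over 18406 genes). On simulated data for this test, 122 of 200 genes changed by 4 on the log2 scale were called, and 4 of 18206 unchanged genes. That change was larger than the differences of C3, C1s, Serping1 and C1r (2.20 to 2.61), so the share called at those was not measured. Recovered ratios used a pseudocount of 1. Named genes were all members, every other listed complement gene called in either table and up to 4 per role of highest axonal mean, and the 5 genes of nearest profile. Genes named beyond this rule (C9, Cd47, Gja1 and the called fibroblast markers) were chosen after their values were seen. A gene that the rule also named is not reported here. The members, lists and motifs were chosen with earlier results of these data known.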

Additional observations from a re-analysis of the deposited data

How the results depend on the processing

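Of the members called in axons, 2 were called by the authors' adjusted p, and 1 (C3) when adjusted over every gene with reads, over genes averaging 10 or more, or after centring with that minimum, an alternative chosen after seeing the data. C1s lost its call in these 3 settings (adjusted p = 0.184, 0.0640 and 0.164) and kept it when centred alone (0.0381). C1r, which has no deposited adjusted p, passed in them (0.0173, 0.00582 and 0.0154), and Serping1 did not (0.175, 0.0593 and 0.127). The C3 difference between compartments, adjusted p = 0.110, passed when p was adjusted over genes averaging 10 or more in both tables (0.0435). Leaving out 1 library at a time, recovered axonal log2 ratios ranged from 2.62 to 3.28 for C3, 1.68 to 4.37 for C1s, 2.67 to 3.36 for C1r and 2.13 to 3.33 for Serping1. C1qa (-2.99 to 0.63) and C1qc (-1.66 to 0.51), neither called, changed side without negative-side library 2. The cause of these changes was not tested. No paired analysis was possible because the deposited columns carry no replicate number. The C1q chains rest on 1 to 18 reads per axonal library, against 55 to 72 in the shallow somatic libraries, and C4a on 1 to 7 in soma.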
